A study of Mus musculus with 19 samples.

Results

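The response of wild-type mouse hearts to LCWE was described by comparing the 6 heart libraries of the group Wt.LCWE with the 5 of the group Wt.PBS, which are 11 of the 19 libraries of the study. LCWE, the Lactobacillus casei cell wall extract, is injected into mice to induce a coronary vasculitis used as a model of Kawasaki disease, and PBS is the saline given to control mice. The comparison was repeated within the 7 wild-type libraries whose sample number is at least 100 and under 200, called the range here: 4 PBS libraries (replicates 1 to 4) and 3 LCWE libraries (replicates 1 to 3). The other 4 wild-type libraries are PBS replicate 5 and LCWE replicates 4 to 6. All of these animals are wild type at Mcm8, the gene deleted in the study's other groups. The labels give no age, sex, strain, dose or time after injection, and what the sample numbers stand for was not given in the sources used here. Nothing in the labels says which libraries come from separate animals, so p-values measure the spread between these libraries only.

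Kawasaki disease is an acute vasculitis of childhood that can leave coronary artery aneurysms. In the LCWE model, cell wall material engages Toll-like receptors on myeloid cells, and macrophages, neutrophils, dendritic cells and T cells collect around the aortic root and coronary arteries, with interleukin 1 as a central cytokine. The heart holds resident macrophages at rest, which clear debris through complement, Fc and scavenger receptors. Monocytes recruited from blood add to them in inflammation.

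Each library held 11853233 to 16145911 gene counts, and levels are given as CPM, counts relative to library size, with sizes scaled by TMM over all 19 libraries. The tissue label was met: Myh6, a cardiac myosin heavy chain, stood at 38825 CPM or more in every wild-type library. Mcm8 ranged from 2.60 to 5.19 CPM in the wild-type libraries. 3 features set some libraries apart before any gene was tested. First, Wt_LCWE replicate 1 had summed Y-linked reads of 131 CPM, against 0.47 to 2.29 CPM in the other wild-type libraries. Its Xist was at 1.01 CPM, against 171 to 242 CPM in them. By these reads, sex was not balanced within the range. Second, LCWE replicates 2 and 3 carried less of the longer transcripts: the slope of log level on log transcript length was -0.16 and -0.24 in them and -0.01 to 0.11 in the other 9 wild-type libraries. Last, Rn45s, the ribosomal RNA precursor, was at 2374, 1841 and 1257 CPM in LCWE replicates 1, 2 and 3 and at 489 to 719 CPM in the other 8. All 3 features fall on LCWE libraries of the range. Counts are given without the libraries of the first 2 features in turn, but Rn45s was high in all 3 LCWE libraries of the range, so no result there is free of it. Apart from these, Alb, on the list of liver markers, was at 1.17 to 3.26 CPM in PBS replicates 1, 3 and 4 and LCWE replicates 1 and 3. It was at 90.4 to 350 CPM in PBS replicates 2 and 5 and LCWE replicates 2, 4, 5 and 6, so it was high in every wild-type library outside the range. Each gene's log2 deviation from its mean over the wild-type libraries was also taken for 13 skeletal muscle markers. Its median was -2.50 and -2.76 in PBS replicates 1 and 5 and -2.41 in LCWE replicate 4. In the other wild-type libraries it was 0.45 to 1.22. The part of Alb and of these markers in the results was not tested.

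C1q is the recognition molecule of the classical complement pathway, is made in the heart mainly by macrophages, and its 3 chains are encoded side by side on chromosome 4. C1qb (GRCm38 chromosome 4, 136880129 to 136886187) was at 50.8, 41.2, 43.9 and 50.8 CPM in PBS replicates 1 to 4 and at 92.3, 112 and 116 CPM in LCWE replicates 1 to 3. The other PBS library was at 39.6 CPM and the other LCWE libraries at 42.1, 62.8 and 55.5 CPM. All 3 LCWE libraries of the range lay above all 5 PBS libraries, and of the other 3 LCWE libraries, 1 lay within the PBS levels and 2 above them. Within the range C1qb rose by 1.16 ± 0.12 (log2, n = 3 and 4, edgeR adjusted p = 0.00395). C1qa (chromosome 4, 136895917 to 136898803) read 46.5, 37.2, 43.3 and 43.1 CPM against 75.6, 88.7 and 107.1 CPM in the range and rose by 1.06 ± 0.13 (edgeR adjusted p = 0.00598). C1qc (chromosome 4, 136889804 to 136893065) read 54.02, 34.5, 45.2 and 46.8 CPM against 92.9, 95.9 and 109 CPM and rose by 1.10 ± 0.15 (edgeR adjusted p = 0.00947). No PBS library of the range reached the lowest LCWE library of the range for any of the 3 genes.

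Because these neighbouring genes moved together, their promoters are shown, 250 bases before to 50 after the RefSeq start on the gene's strand (GRCm38.p6), for the 2 that the sequence table holds, C1qb at chr4:136886151-136886450 and C1qc at chr4:136892865-136893164, both on the minus strand. Capitals mark a match to GAGGAAGT, a binding motif of PU.1, the myeloid transcription factor encoded by Spi1.
C1qb: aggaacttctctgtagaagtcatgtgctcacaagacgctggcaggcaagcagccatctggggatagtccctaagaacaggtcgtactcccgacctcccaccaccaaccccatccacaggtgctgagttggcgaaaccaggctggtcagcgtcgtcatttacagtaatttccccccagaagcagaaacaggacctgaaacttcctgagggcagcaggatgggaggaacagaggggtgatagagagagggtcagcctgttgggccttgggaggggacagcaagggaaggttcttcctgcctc
C1qc: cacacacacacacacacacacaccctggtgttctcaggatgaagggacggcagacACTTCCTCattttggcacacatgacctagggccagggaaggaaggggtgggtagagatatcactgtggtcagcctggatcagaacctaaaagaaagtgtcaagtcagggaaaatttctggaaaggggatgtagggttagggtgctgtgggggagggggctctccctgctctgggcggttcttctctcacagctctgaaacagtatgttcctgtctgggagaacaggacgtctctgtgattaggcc
The C1qc match lies on the opposite strand at position -195 from the start. Both strands were searched, and of 32841 promoters of this length 3.203% hold these letters. C1qb does not hold these exact letters in this window, and near matches were not searched for. Spi1, chosen here after its values were seen because it encodes PU.1, rose within the range from 7.18, 4.67, 5.02 and 3.67 CPM to 10.4, 7.80 and 14.0 CPM (log2 1.03 ± 0.23, edgeR adjusted p = 0.0242). The Spi1 call was lost without LCWE replicate 2. Whether PU.1 acts on these genes was not tested.

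Over all 11 wild-type libraries, none of 14301 tested genes passed edgeR's quasi-likelihood test at an adjusted p of 0.05 (0% called). At an unadjusted p under 0.05 there were 657 genes higher after LCWE (4.59%) and 235 lower (1.64%). DESeq2 called 1 gene and limma-voom 0. That gene was Ddit4, a stress- and glucocorticoid-induced inhibitor of mTORC1 signalling. Ddit4 ranged from 98.95 to 166 CPM (median 119) in the PBS libraries and from 38.2 to 80.3 CPM (median 46.9) in the LCWE libraries, so every LCWE library lay below every PBS library. Its log2 difference was -1.23 ± 0.26 (edgeR unadjusted p = 0.000127, adjusted p = 0.772), and DESeq2 gave -1.24 with an adjusted p of 0.0129. Within the range Ddit4 fell by 1.15 ± 0.24 (edgeR adjusted p = 0.0249), a call lost without PBS replicates 1, 2 or 4 or LCWE replicates 2 or 3.

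The LCWE and PBS libraries did not overlap at all for 63 higher genes (0.441% of those tested) and 37 lower genes (0.259%). The share that chance alone would separate was not worked out. The genes named below were picked for this separation or for a small p, so their values are a description only. Among the higher ones, Itgam, the CD11b chain of the complement receptor 3 integrin, ran from 3.27 to 6.41 CPM (median 4.48) in PBS and from 6.997 to 12.2 CPM (median 8.63) in LCWE libraries (log2 0.97 ± 0.36). Pld4, an endolysosomal nuclease of myeloid cells, ran from 9.20 to 13.5 CPM (median 12.5) and from 13.8 to 30.3 CPM (median 20.7) in the same order (log2 0.84 ± 0.31). Alox5ap, the protein that presents arachidonic acid to 5-lipoxygenase for leukotriene synthesis, ran from 7.79 to 8.76 CPM (median 8.67) and from 8.88 to 20.2 CPM (median 14.2) (log2 0.74 ± 0.28). In these 3 genes the 3 LCWE libraries of the range stood above the 3 outside it. Pirb, an inhibitory receptor for MHC class I on myeloid and B cells, ran from 4.17 to 7.87 CPM (median 5.93) and from 8.26 to 15.5 CPM (median 9.24) (log2 0.81 ± 0.35). H2-Q5, a class Ib member of the MHC, ran from 2.66 to 4.26 CPM (median 3.87) and from 4.56 to 10.9 CPM (median 7.05) (log2 1.002 ± 0.30). Pirb and H2-Q5 belong to families of near-identical genes, so reads could be split between copies. Ctso, a cysteine protease, ran from 14.4 to 18.4 CPM (median 16.03) and from 19.3 to 21.98 CPM (median 20.4) (log2 0.35 ± 0.10), with the 6 LCWE libraries close together inside and outside the range.

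On the lower side, Irf2bp2, a transcriptional corepressor, ran from 69.1 to 110.4 CPM (median 78.6) in PBS and from 48.9 to 67.6 CPM (median 58.1) in LCWE libraries (log2 -0.52 ± 0.12). Bcl7a, a subunit of BAF chromatin remodelling complexes, ran from 21.4 to 24.2 CPM (median 22.3) and from 15.5 to 18.9 CPM (median 18.3) (log2 -0.32 ± 0.08). Tsc22d3, the glucocorticoid-induced leucine zipper protein, ran from 95.3 to 146 CPM (median 105) and from 57.3 to 92.6 CPM (median 85.8) (log2 -0.45 ± 0.16). The LCWE libraries outside the range lay among those within it for Ddit4, below them for Irf2bp2 and at their upper end for Bcl7a. Within the range Bcl7a passed the test (edgeR adjusted p = 0.0393), and Irf2bp2 (edgeR adjusted p = 0.0705) and Tsc22d3 (edgeR adjusted p = 0.0814) did not. The Bcl7a call was lost without any 1 of the 7 wild-type libraries but LCWE replicate 1, and without Mcm8Ko_LCWE replicates 1 or 3. Of 22 tested glucocorticoid target genes, 2 fell within the range, Ddit4 and Per1, against 3.07% of all tested genes. The median log2 was -0.21, and none passed after the length correction. At an unadjusted p under 0.05 in edgeR's test, 2 were higher and 6 lower. DESeq2 called 2 higher and 3 lower, and edgeR in wild-type libraries alone 1 higher and 3 lower. Per1 is also among 20 tested circadian clock genes, of which 3 fell. Per1, a clock gene induced by glucocorticoids, read 84.6, 92.7, 79.8 and 91.7 CPM in PBS replicates 1 to 4 and 47.7, 65.2 and 34.5 CPM in LCWE replicates 1 to 3, and LCWE replicate 6 was at 99.99 CPM, above every PBS library. The Per1 call was lost without any 1 of the 7 wild-type libraries.

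**Figure D1:**
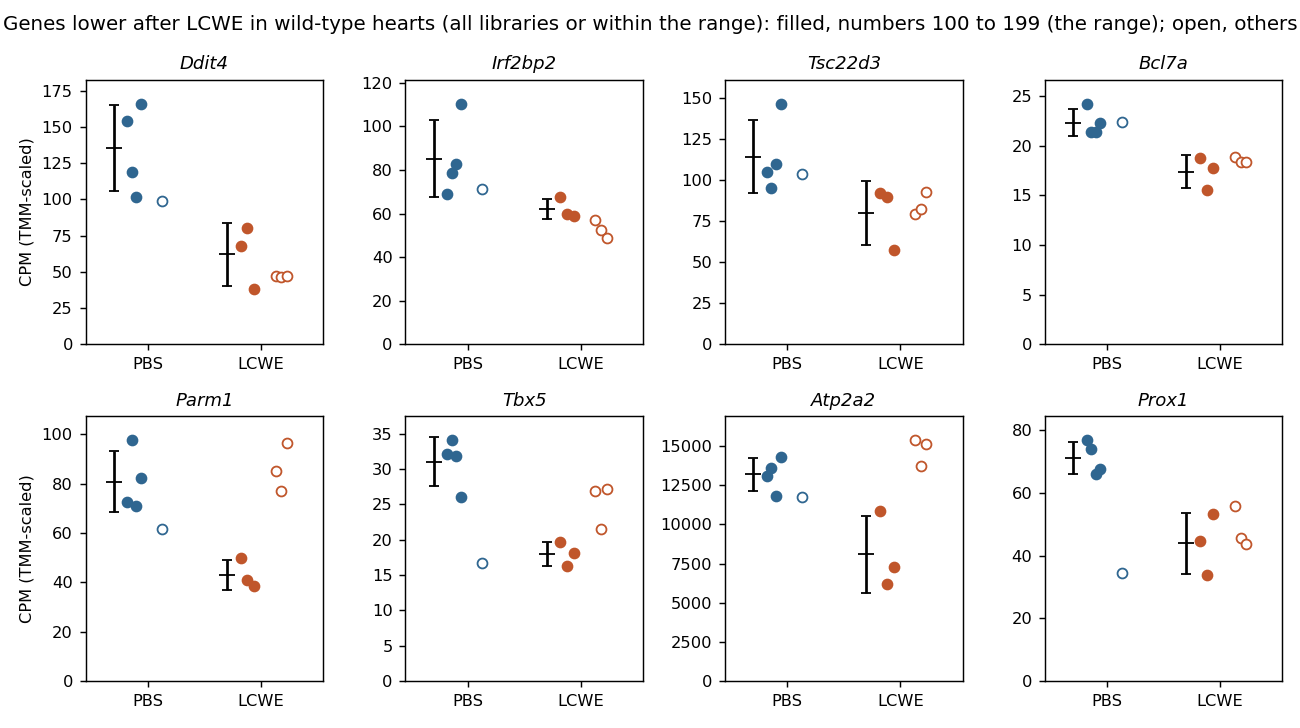
CPM (y axis, linear from 0) of 8 genes in each wild-type library, PBS and LCWE; filled points are libraries of the range with their mean ± SD, open points the other libraries. In the top row (Ddit4, Irf2bp2, Bcl7a, Tsc22d3) every LCWE library lies below every PBS library, and in the bottom row (Parm1, Tbx5, Atp2a2, Prox1) the filled LCWE points lie below the filled PBS points while open LCWE points of Parm1 and Atp2a2 reach the PBS levels.

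Within the range, 1221 of 14747 tested genes passed (8.28%), 768 higher (5.21%) and 453 lower (3.07%). The 12 higher genes with the smallest p were C1qb, Alox5ap, C1qa, Sh3bgrl3, Rn45s, Lcp1, Cyth4, C1qc, Cox6a1, H2az1, Fcer1g and Tyrobp. The 3 LCWE and 4 PBS libraries did not overlap for 1801 higher genes (12.2%) and 1352 lower genes (9.17%). Scaling by library totals alone, without TMM, gave 646 higher and 616 lower genes. The count rested on single libraries: it was 15 without LCWE replicate 2, 88 without LCWE replicate 3 and 3143 without LCWE replicate 1. It was 297, 157, 673 and 451 without PBS replicates 1, 2, 3 and 4, and 767 and 766 without Mcm8Ko_LCWE replicates 1 and 3. The knockout libraries are not compared here, but they enter the filter, the scaling and the estimate of spread. Without both LCWE replicates 2 and 3 it was 4: Rn45s, Lars2, Mir6236 and Xist, and Xist was at 1.01 CPM in the LCWE library that remained. The last 3 were chosen after their values were seen, because they make up the 4. In wild-type libraries alone 808 genes passed (5.98%), 593 higher (4.39%) and 215 lower (1.59%). With the level of Y-linked reads as a covariate 2211 genes passed, 1134 higher and 1077 lower.

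13 genes passed in every fit that left out 1 library, and all 13 were higher. They are C1qa, C1qb, C1qc, Csf1r, Cbr2, Lcp1, Cyth4, Alox5ap, Sh3bgrl3, Cox6a1, Pcolce, H2az1 and Rn45s; Pcolce is named as a member of this set only. With LCWE replicate 1 as the only LCWE library in the range, C1qb stood at 0.97 (edgeR adjusted p = 0.0878), Cyth4 at 1.12 (edgeR adjusted p = 0.0878) and Csf1r at 0.73 (edgeR adjusted p = 0.0878) on the log2 scale. None of these 3 genes passed on it alone. That library's slope of level on transcript length was 0.00, against 0.04 to 0.11 in the 4 PBS libraries of the range. There its spread is assumed to be that of the other groups.

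Transcript length moved with the result across the transcriptome. 10434 genes at 5 CPM or more were split by transcript length into 5 groups of equal size. The shortest group (67 to 1701 bases) had a median log2 of 0.30 within the range and the longest group (4920 to 123179 bases) of -0.27. Of the shortest group, 24.5% were called higher and 0.288% lower, and of the longest group, 0.335% were called higher and 10.97% lower. Over all 11 wild-type libraries the medians were 0.17 and -0.12. Across genes, which are not independent replicates, Spearman's rho of length with the log2 difference was -0.62 within the range and -0.59 over all libraries. Within the range it was -0.29 with LCWE replicates 2 and 3 left out. A lowess correction of each library for transcript length was then applied. Over all libraries it took the genes at an unadjusted p under 0.05 in edgeR's test from 892 to 502. Leaving out LCWE replicates 2 and 3 instead gave 262 there. Within the range, 181 genes passed after the correction (1.23%), 129 higher (0.875%) and 52 lower (0.353%). Of the 1221 genes, 151 were still called. Of the 13 genes above, 10 were, and Cbr2 (0.52, edgeR adjusted p = 0.0852), Pcolce (0.39, edgeR adjusted p = 0.0552) and Cox6a1 (0.38, edgeR adjusted p = 0.0725) were not. Rn45s and H2az1 have no length in the annotation and were left uncorrected. Among the other genes given with their values, the calls of Spi1, Pirb, H2-Q5, Ddit4, Bcl7a, Per1, Folr2, C3ar1, Tlr2, Cd14, Pycard, Ccl12, Cxcl10, B2m, Ltc4s, Plk1, Egfl7, Flt1, Acta2, Lpl and Nppb within the range were lost after the correction. Those of Bcl7a, Flt1 and Nppb were also lost in wild-type libraries alone.

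**Figure D2:**
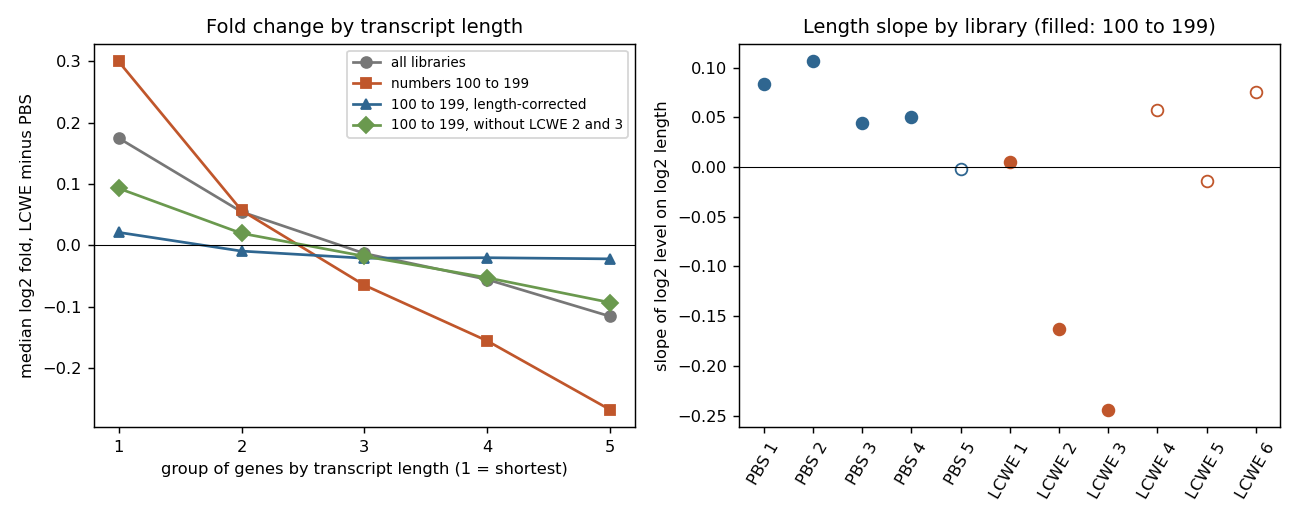
Left, median log2 difference (LCWE minus PBS) in 5 groups of genes ordered by transcript length (x axis, 1 the shortest), for all libraries, the range, the length-corrected range and the range without LCWE replicates 2 and 3. Right, the slope of log2 level on log2 transcript length in each wild-type library, filled within the range; the median within the range goes from 0.30 to -0.27 and lies between 0.02 and -0.02 after the correction, and LCWE replicates 2 and 3 have the lowest slopes (-0.16 and -0.24).

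Some resident macrophage markers rose within the range, where 5.21% of all tested genes were called higher. Of 16 tested, 7 passed (Adgre1, Cd68, Csf1r, Mrc1, Folr2, Cbr2 and C5ar1) and none was called lower. The others on the list (Lyve1, Timd4, Vsig4, Cd163, Mertk, Cx3cr1, F13a1, Gas6 and Maf) did not pass. Of the 16 log2 differences, 13 were above 0. The list's median log2 was 0.56, against -0.02 over all tested genes. It was 0.53 after the length correction, where 3 passed. In bulk tissue, more cells of a type and more RNA per cell cannot be told apart. Csf1r, the receptor for macrophage colony-stimulating factor, was at 66.5, 64.5, 69.1 and 60.6 CPM in the PBS libraries of the range and at 109, 94.2 and 104 CPM in its LCWE libraries, with 41.3 CPM in the other PBS and 55.8, 63.0 and 72.4 CPM in the other LCWE libraries. It rose by 0.62 ± 0.10 within the range (edgeR adjusted p = 0.0107) and by 0.77 after the length correction (edgeR adjusted p = 0.00724). Every LCWE library of the range lay above every PBS library, and the others overlapped. Adgre1, which encodes the macrophage antigen F4/80, read 12.2, 9.47, 10.2 and 11.3 CPM against 21.7, 14.1 and 26.7 CPM (log2 0.91 ± 0.18, edgeR adjusted p = 0.0178), a call lost without PBS replicate 2 or LCWE replicate 3. Folr2, a folate receptor of resident macrophages, read 12.7, 8.78, 9.81 and 11.9 CPM against 22.5, 18.02 and 16.6 CPM (log2 0.79 ± 0.16, edgeR adjusted p = 0.0178), a call lost without PBS replicate 2 or LCWE replicate 2. The 7 calls became 2 without PBS replicate 2, 3 without LCWE replicate 2 or 3 and 4 without PBS replicate 1 or 3. The list's summed level was 463 to 566 CPM in the 5 PBS libraries and 511 to 650 CPM in the 6 LCWE libraries.

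Of 14 recruited monocyte markers tested, 3 rose within the range (21.4%, against 5.21% of all tested genes), Itgam, Lyz2 and Fcgr4. The list's median log2 was 0.67 before and after the length correction. Lyz2, a lysozyme of myeloid cells, read 158, 120.03, 139 and 167 CPM in PBS and 239.8, 274 and 355 CPM in LCWE libraries of the range (log2 0.95 ± 0.15, edgeR adjusted p = 0.0107), and 149.6, 189.6 and 203 CPM in the other LCWE libraries. The chemokine receptor Ccr2, chosen here as the usual marker of recruited monocytes after its values were seen, stood at log2 0.67 ± 0.49 (edgeR adjusted p = 0.401) and did not pass. The list's 3 calls became 0 without LCWE replicate 2 (Lyz2 among them) and 1 without LCWE replicate 3.

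Of 26 pan-leukocyte and myeloid signalling genes, 17 rose within the range (65.4%, against 5.21% of all tested genes), 11 after the length correction and none over all libraries, where 13 were higher at an unadjusted p under 0.05. All 26 log2 differences were above 0 in both fits, and the median log2 was 0.81 within the range and 0.63 over all libraries. Lcp1, the actin-bundling protein L-plastin, was at 25.5, 17.1, 19.3 and 17.9 CPM in the PBS and 39.8, 38.1 and 44.5 CPM in the LCWE libraries of the range, and at 16.6 CPM and 18.9, 21.7 and 24.5 CPM outside it. The 3 LCWE libraries of the range were above all others, and the remaining LCWE libraries lay among the PBS levels. Lcp1 rose by 1.004 ± 0.13 (edgeR adjusted p = 0.00905). Rac2, the GTPase of leukocyte migration and of the phagocyte oxidase, read 5.93, 3.92, 5.70 and 3.34 CPM against 10.1, 12.5 and 13.8 CPM and rose by 1.34 ± 0.20 (edgeR adjusted p = 0.00993). Cyth4, an exchange factor for ARF GTPases, read 13.9, 10.4, 10.3 and 12.9 CPM against 26.01, 21.6 and 24.9 CPM and rose by 0.99 ± 0.13 (edgeR adjusted p = 0.00905). No library of one group reached the other in the range for either gene, and the Rac2 call was lost without LCWE replicate 2. Without LCWE replicate 2, 15 genes passed over the whole table: the 13 named above, Adgre1 and Nckap1l, a subunit of the WAVE complex of blood cells, named as the last of the 15. Leaving out LCWE replicate 2 left 2 of the 17 calls, LCWE replicate 3 left 8 and PBS replicate 2 left 10.

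**Figure D3:**
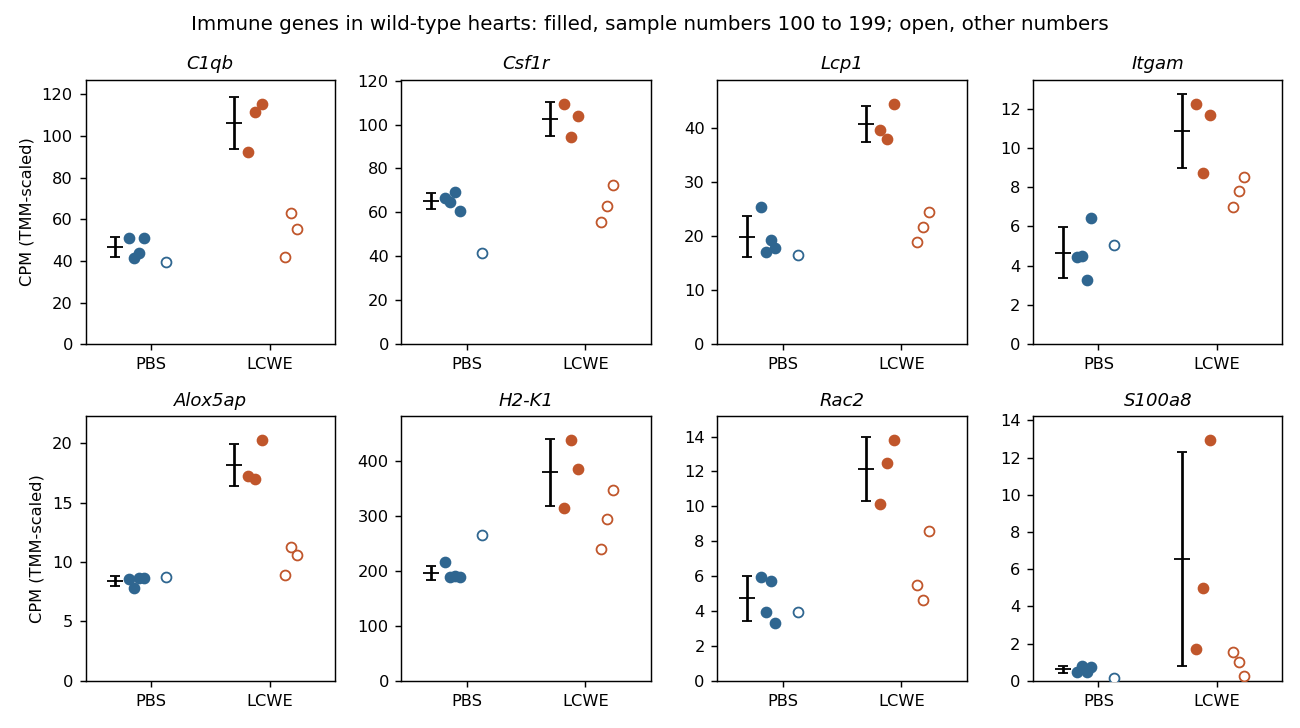
CPM (y axis, linear from 0) of named complement and leukocyte genes in each wild-type library, PBS and LCWE; filled points are libraries of the range with their mean ± SD, open points the other libraries. The filled LCWE points lie above the filled PBS points in each panel, for C1qb at 92.3, 112 and 116 CPM against 50.8, 41.2, 43.9 and 50.8 CPM.

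Receptors for antibody and complement followed. Of 15 Fc receptors and adaptors, 7 rose within the range (46.7%, against 5.21% of all tested genes), 4 after the length correction, and the median log2 was 0.73. Fcer1g, the signalling chain shared by activating Fc receptors, read 10.3, 6.91, 7.07 and 7.41 CPM against 14.2, 18.5 and 23.5 CPM (log2 1.21 ± 0.18, edgeR adjusted p = 0.00993). Tyrobp, the DAP12 adaptor, is on the pan-leukocyte list and not on this one. It read 11.6, 9.09, 10.4 and 8.21 CPM against 17.5, 21.9 and 29.7 CPM (log2 1.19 ± 0.18, edgeR adjusted p = 0.00993). Fcgr3, a low-affinity activating IgG receptor, read 15.5, 11.8, 15.8 and 16.3 CPM against 24.8, 28.6 and 30.4 CPM (log2 0.88 ± 0.14, edgeR adjusted p = 0.0107). For these 3 genes the groups of the range did not overlap, and each call was lost without LCWE replicate 2. Fcgr4, an IgG receptor of monocytes and neutrophils, rested on 6 to 13 counts in the PBS and 14 to 54 counts in the LCWE libraries, without overlap (log2 1.97 ± 0.35, edgeR adjusted p = 0.013). Of 18 complement genes 5 rose, the 3 C1q genes and the anaphylatoxin receptors C3ar1 and C5ar1, with a median log2 of 0.47, and 3 after the length correction. C3ar1 read 5.76, 5.29, 6.92 and 5.07 CPM against 9.78, 7.74 and 12.2 CPM (log2 0.75 ± 0.20, edgeR adjusted p = 0.0384), lost without PBS replicate 1, 2 or 4, LCWE replicate 2 or 3, or Mcm8Ko_LCWE replicate 1 or 3. The Fcgr4 call was lost without LCWE replicate 2 or 3. The Fc receptor count became 0 without LCWE replicate 2, 3 without LCWE replicate 3 and 4 without PBS replicate 1 or 2. The complement count was 3 without any of these 4 libraries or Mcm8Ko_LCWE replicate 3.

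Some genes for the oxidative burst and for sensing the cell wall also rose. Of 9 NADPH oxidase genes, 4 rose (44.4%, against 5.21% of all tested genes), Cyba, Ncf1 and Rac2 among them (median log2 0.62), and 2 after the length correction. Ncf1, the p47phox organiser subunit, read 6.85, 4.67, 4.41 and 5.60 CPM against 8.77, 9.41 and 10.1 CPM (log2 0.78 ± 0.18, edgeR adjusted p = 0.0245), lost without PBS replicate 2 or LCWE replicate 2 or 3. Of 24 pattern recognition receptors, 3 rose (12.5%), Tlr2, Cd14 and Clec4n, and none after the length correction (median log2 0.46 and 0.44). Tlr2, the receptor for bacterial lipoproteins and cell wall material, read 3.92, 3.05, 4.18 and 3.34 CPM against 5.58, 6.07 and 7.14 CPM (log2 0.76 ± 0.19, edgeR adjusted p = 0.0345), with 2.52 CPM and 3.46, 5.05 and 4.53 CPM outside the range. Its co-receptor Cd14 read 7.76, 7.35, 9.05 and 5.74 CPM against 13.5, 12.9 and 19.4 CPM (log2 0.99 ± 0.20, edgeR adjusted p = 0.0184). The groups of the range did not overlap for these genes. Of 13 inflammasome and interleukin 1 genes, 2 rose, Pycard and Casp4, and none after the length correction; Pycard, the ASC adaptor of inflammasomes, read 16.1, 12.8, 14.5 and 10.5 CPM against 17.7, 24.7 and 40.6 CPM (log2 1.0005 ± 0.23, edgeR adjusted p = 0.0292). All 3 pattern recognition calls and both inflammasome calls were lost without PBS replicate 2, LCWE replicate 2 or LCWE replicate 3. Without PBS replicate 1 or 4, 1 pattern recognition call and no inflammasome call was left, and without LCWE replicate 1 there were 6 pattern recognition calls. Without PBS replicate 3 or Mcm8Ko_LCWE replicate 1 or 3, 1 inflammasome call was left. The oxidase count was 0 without LCWE replicate 2, 1 without LCWE replicate 3 or PBS replicate 2 and 2 without PBS replicate 1 or 4 or Mcm8Ko_LCWE replicate 3.

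Of 27 chemokine and cytokine genes, 5 rose (18.5%, against 5.21% of all tested genes), Ccl5, Ccl12, Cxcl10, Cxcl16 and Pf4 (median log2 0.60). limma-voom called 3 of the list, and 1 passed after the length correction. Ccl12, a ligand of CCR2, had 0 to 5 counts in PBS and 6 to 17 counts in LCWE libraries, without overlap over all 11 (log2 within the range 2.79 ± 0.71, edgeR adjusted p = 0.0342). Cxcl10, an interferon-induced T cell chemokine, had 1 to 9 counts in PBS and 3 to 28 in LCWE libraries (log2 2.23 ± 0.60, edgeR adjusted p = 0.0415). Their depth limits these to low-count calls. Within the range 1 library could meet the count filter, so the higher LCWE counts could themselves have let these genes be tested. Both calls were lost without LCWE replicate 2 or 3 or PBS replicate 1, 2 or 4, and Cxcl10 also without PBS replicate 3. The list's count was 0 without LCWE replicate 2, 1 without LCWE replicate 3 or PBS replicate 1 or 2, and 2 without PBS replicate 3 or 4. None of 37 interferon-stimulated genes (median log2 0.20) passed in edgeR's test within the range, with 1 at an unadjusted p under 0.05, 1 called by DESeq2, 1 by edgeR in wild-type libraries alone and 0 by limma-voom. None of 16 NF-kB and AP-1 feedback genes (median log2 0.13) passed, with 3 higher and 1 lower at an unadjusted p under 0.05 and 0 called by DESeq2 or limma-voom.

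Antigen presentation genes rose in part. Of 20 MHC class I presentation genes, 8 rose and 1, the chaperone gene Canx, fell (median log2 0.33), against 5.21% higher and 3.07% lower of all tested genes. After the length correction 2 were higher and 0 lower (median 0.26), and Canx did not pass in wild-type libraries alone. H2-K1, a classical class I heavy chain, read 216, 189.8, 190.4 and 189.6 CPM in the PBS and 315, 437 and 386 CPM in the LCWE libraries of the range, and 265 CPM and 239.7, 295 and 347 CPM outside it. It rose by 0.92 ± 0.14 (edgeR adjusted p = 0.00993), with the LCWE libraries of the range above all PBS libraries. B2m, the class I light chain, read 203, 146, 176 and 182 CPM against 242, 363 and 367 CPM and rose by 0.84 ± 0.17 (edgeR adjusted p = 0.0184). Without LCWE replicate 2 neither gene passed, and B2m also not without LCWE replicate 3 or PBS replicate 2. Of 12 MHC class II presentation genes, 5 rose (Cd74, H2-Ab1, H2-Eb1, Ctss and Ifi30; median log2 0.50), and none passed after the length correction or without PBS replicate 2 or 4 or LCWE replicate 2 or 3. The class I count of higher genes was 0 without LCWE replicate 2, 2 without LCWE replicate 3, 3 without PBS replicate 2 and 5 without PBS replicate 3, and the Canx call was lost without any 1 wild-type library but LCWE replicate 1 and without Mcm8Ko_LCWE replicate 1 or 3. The class II count was 2 without PBS replicate 1 or Mcm8Ko_LCWE replicate 1, and 1 without PBS replicate 3. Some class I H2 genes are near-identical copies, so their reads could be split.

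Markers of blood cells other than macrophages were at low levels and moved with the same libraries. The count filter within the range could be met by 1 library, because the smallest group there, Mcm8Ko_PBS, held 1. Low genes could therefore be tested because LCWE libraries were high, so the medians and counts of these lists are a description only. Within the range, 5.21% of all tested genes were called higher. Of 11 neutrophil markers tested, 4 rose (S100a8, S100a9, Retnlg and Ngp; median log2 2.53). DESeq2 called 2 of the list, limma-voom 1, and edgeR 2 in wild-type libraries alone and 1 after the length correction. S100a8, a subunit of calprotectin, had 2 to 13 counts in PBS and 4 to 152 in LCWE libraries, at 0.501, 0.810, 0.456 and 0.734 CPM against 1.74, 5.02 and 12.9 CPM in the range (log2 3.30 ± 0.55, edgeR adjusted p = 0.013). S100a8 and S100a9 did not pass with limma-voom, nor S100a9 in wild-type libraries alone. LCWE replicate 3 was highest for S100a8, and LCWE replicate 6, outside the range, was within the PBS levels. Of 13 T and NK cell markers, 5 rose (Cd8a, Cd8b1, Cd3d, Nkg7 and Thy1; median log2 1.74). DESeq2 called 1 of these 13, limma-voom 3, and edgeR 0 in wild-type libraries alone and 1 after the length correction. Cd8a, the CD8 co-receptor of cytotoxic T cells, had 1 to 4 counts in PBS and 2 to 29 in LCWE libraries, and LCWE replicate 2 was highest. Of 12 platelet markers, 3 rose (Pf4, Ppbp and Gp9; median log2 1.45), with 1 called by DESeq2 and 1 after the length correction. None of 9 B and plasma cell markers passed in edgeR's test (median log2 0.45), with 1 at an unadjusted p under 0.05 and 0 called by DESeq2 or limma-voom.

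The summed level of the neutrophil markers was 7.83 to 15.9 CPM in PBS and 15.3 to 73.7 CPM in LCWE libraries, of the platelet markers 33.7 to 44.5 and 31.8 to 84.0 CPM, and of the erythroid markers 24.7 to 49.4 and 40.8 to 81.4 CPM. None of 5 erythroid markers passed in edgeR's test within the range (median log2 1.501), with 4 higher at an unadjusted p under 0.05, 2 called by DESeq2 and 1 by limma-voom. All 4 tested over all libraries were higher at an unadjusted p under 0.05. The haemoglobin gene Hba-a1, a defining erythroid marker, was at 0 in every library. The counting program was not given, so this 0 does not measure how much blood was retained. The part of retained blood in the leukocyte results was not tested. The 4 neutrophil calls became 0 without LCWE replicate 2, 1 without LCWE replicate 3 or PBS replicate 1 or 3, and 2 without PBS replicate 4 or Mcm8Ko_LCWE replicate 1 or 3. The 5 T and NK calls became 0 without PBS replicate 1 or 2 or LCWE replicate 2 or 3, 1 without PBS replicate 4, 2 without PBS replicate 3 or Mcm8Ko_LCWE replicate 1 or 3 and 3 without Mcm8Ko_PBS replicate 1. The 3 platelet calls became 0 without LCWE replicate 2 and 1 without LCWE replicate 3 or PBS replicate 1, 2 or 4.

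Leukotriene genes and cell cycle genes gave some calls within the range, where 5.21% of all tested genes were called higher. Alox5ap rose within the range from 8.60, 7.79, 8.67 and 8.67 CPM to 17.2, 17.0 and 20.2 CPM (log2 1.07 ± 0.12, edgeR adjusted p = 0.00561), and in the fit with length correction it stood at 0.82 (edgeR adjusted p = 0.0131). Ltc4s, the leukotriene C4 synthase, read 2.92, 2.49, 2.89 and 2.40 CPM against 7.68, 7.62 and 5.95 CPM (log2 1.38 ± 0.23, edgeR adjusted p = 0.013), while the PBS library outside the range was at 5.72 CPM, among the LCWE levels. Of 18 leukotriene and prostaglandin genes, 4 rose, with a median log2 of 0.13; 1 passed after the length correction, 1 was left without LCWE replicate 2 and 2 without LCWE replicate 3 or PBS replicate 1, 2 or 4. Of 28 cell cycle genes, 7 rose (median log2 0.64), and 1 after the length correction. Plk1, a mitotic kinase, read 1.34, 1.06, 1.29 and 0.934 CPM against 4.06, 2.48 and 2.21 CPM in the range (log2 1.31 ± 0.30, edgeR adjusted p = 0.0259) and 0.943, 0.820 and 0.947 CPM in the other LCWE libraries, inside the PBS levels. The cell cycle count became 0 without PBS replicate 1, 2 or 4 or LCWE replicate 2, and 3 or 4 without PBS replicate 3, LCWE replicate 1 or Mcm8Ko_LCWE replicate 3 or 1.

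Vessel wall genes were read against the 5.21% of all tested genes called higher and the 3.07% called lower. Of 20 endothelial markers, 2 rose (Egfl7 and Ramp2) and 1 fell (Flt1), with a median log2 of 0.06, a count near that share; 1 of them was called higher and 0 lower in wild-type libraries alone, and limma-voom called 1 in each direction. Egfl7, a protein secreted by endothelium, read 207, 209.5, 227 and 161 CPM against 258, 393 and 314.1 CPM (log2 0.65 ± 0.14, edgeR adjusted p = 0.0242). Flt1, a VEGF receptor, read 177, 167, 155.8 and 216 CPM against 148, 123.1 and 88.8 CPM (log2 -0.61 ± 0.17, edgeR adjusted p = 0.0444). The groups of the range did not overlap for either gene, and no endothelial call was left without PBS replicate 1, 2 or 4 or LCWE replicate 2 or 3, or after the length correction. Of 18 smooth muscle and pericyte markers, 2 rose (Acta2 and Myl9) and 2 fell (Mylk and Abcc9), with a median log2 of -0.12. None of the 18 passed after the length correction, and 2 higher and 1 lower did in wild-type libraries alone. Acta2, smooth muscle actin, read 377, 351, 451 and 178 CPM against 626, 595 and 787 CPM in the range (log2 0.95 ± 0.24, edgeR adjusted p = 0.0384), and 220.5 CPM against 251, 195 and 158 CPM outside it. No smooth muscle call was left without PBS replicate 1 or 2 or LCWE replicate 2 or 3, and 5 fell without LCWE replicate 1. Of 15 fibroblast markers 2 rose (Dpt and Mfap5; median log2 0.32), 0 after the length correction, 0 without PBS replicate 2 or 4 or LCWE replicate 2 and 1 without PBS replicate 1 or 3, LCWE replicate 3 or Mcm8Ko_LCWE replicate 1. None of 21 collagen genes passed in edgeR's test (median log2 0.04), with 1 higher and 1 lower at an unadjusted p under 0.05 and 0 called by DESeq2 or limma-voom, and 1 rose after the length correction (median 0.25). Of 6 lymphatic endothelial markers, 3 fell (Prox1, Reln and Mmrn1; median log2 -0.57), with 1 called by limma-voom and 1 after the length correction (median -0.39).

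Prox1, a transcription factor of lymphatic endothelium and of cardiomyocytes, read 76.8, 74.0, 66.0 and 67.7 CPM in PBS replicates 1 to 4 and 44.8, 33.9 and 53.2 CPM in LCWE replicates 1 to 3. The PBS library outside the range was at 34.6 CPM, below all but 1 of the LCWE libraries. Prox1 fell by 0.73 ± 0.14 within the range (edgeR adjusted p = 0.0177), a call lost without PBS replicate 2 or LCWE replicate 2. The 3 lymphatic calls became 0 without these 2 libraries and 1 without PBS replicate 3 or 4, LCWE replicate 3 or Mcm8Ko_LCWE replicate 1.

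Some cardiomyocyte genes for calcium handling and transcription fell within the range, where 3.07% of all tested genes were called lower. Of 31 calcium and ion channel genes, 4 fell (Atp2a2 and Kcnd3 among them; median log2 -0.36, and -0.29 after the length correction, where 1 passed). DESeq2 called 10 of these genes lower, and edgeR 1 in wild-type libraries alone. Atp2a2, the sarcoplasmic calcium pump SERCA2, read 13102, 13581, 11802 and 14336 CPM in the PBS and 10849, 6179.5 and 7255 CPM in the LCWE libraries of the range. LCWE replicate 1 was the nearest to PBS, and the other LCWE libraries, at 15369.6, 13711 and 15166 CPM, were as high as PBS or higher. Atp2a2 fell by 0.74 ± 0.17 (edgeR adjusted p = 0.0268), with -0.59 after the length correction (edgeR adjusted p = 0.0615); the call was lost without PBS replicate 1, 2 or 4 or LCWE replicate 2 or 3. Of 25 cardiomyocyte transcription factor and signalling genes, 4 fell (Tbx5, Tbx20, Myocd and Prkaa2; median log2 -0.33), and 1 after the length correction. Tbx5, a T-box factor of heart development and conduction, read 32.1, 34.1, 31.9 and 26.1 CPM against 19.6, 16.2 and 18.2 CPM (log2 -0.82 ± 0.16, edgeR adjusted p = 0.0174), and 16.7 CPM in PBS against 27.0, 21.5 and 27.2 CPM in LCWE libraries outside the range. There the order was the opposite, with 1 PBS library. Both counts were 0 without PBS replicate 2 or LCWE replicate 2 or 3, and the calcium count also without PBS replicate 1. They were 12 and 13 without LCWE replicate 1. The calcium and factor counts were 2 and 2 without PBS replicate 3, 1 and 2 without PBS replicate 4, 1 and 2 without Mcm8Ko_LCWE replicate 1 and 2 and 2 without Mcm8Ko_LCWE replicate 3, and the factor count was 1 without PBS replicate 1.

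Parm1, Epha4 and Pde4d were among the lower genes with the smallest p. Parm1, a mucin-like membrane protein of the heart, read 72.5, 97.5, 70.9 and 82.3 CPM against 49.98, 41.1 and 38.3 CPM in the range and fell by 0.94 ± 0.14 (edgeR adjusted p = 0.00993). The LCWE libraries outside it were at 84.9, 77.0 and 96.5 CPM, within the PBS levels. Epha4, an ephrin receptor kinase, read 37.4, 36.4, 29.1 and 48.8 CPM against 18.7, 11.8 and 16.2 CPM and fell by 1.32 ± 0.20 (edgeR adjusted p = 0.0121). Pde4d, a cyclic AMP phosphodiesterase, read 35.6, 31.3, 33.7 and 35.3 CPM against 22.7, 19.8 and 23.6 CPM and fell by 0.65 ± 0.12 (edgeR adjusted p = 0.013). None of the LCWE libraries of the range reached a PBS library of the range in these 3 genes. All 3 passed after the length correction, and all 3 calls were lost without LCWE replicate 2. Lpl, the lipoprotein lipase that frees fatty acids for the heart, read 3779, 4069.7, 4051 and 5037 CPM against 2998, 2506 and 2783 CPM and fell by 0.65 ± 0.13 (edgeR adjusted p = 0.0191), lost without PBS replicate 2 or LCWE replicate 2 or 3. None of 27 fatty acid oxidation genes passed in edgeR's test (median log2 -0.15), with 1 higher and 3 lower at an unadjusted p under 0.05, 1 called in each direction by DESeq2 and 0 by limma-voom.

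Natriuretic peptide and other load-induced genes gave 3 calls of 18, Nppb, Tuba4a and Actc1 (median log2 0.35), against 5.21% of all tested genes. After the length correction it gave 0 (median 0.11). Nppb, which encodes the B-type natriuretic peptide released by strained cardiomyocytes, read 208, 232, 276 and 297 CPM in the PBS and 352, 1078 and 484 CPM in the LCWE libraries of the range (log2 1.30 ± 0.31, edgeR adjusted p = 0.038). LCWE replicate 2 was far above the others, and the other PBS library, at 390.0 CPM, lay above LCWE replicate 1. The Nppb call was lost without any 1 of the 7 wild-type libraries but LCWE replicate 1, and without Mcm8Ko_LCWE replicates 1 or 3. The list's count was 0 without PBS replicate 2 or 3 or LCWE replicate 2 or 3, 1 without PBS replicate 1 or 4 and 5 without LCWE replicate 1.

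The lists with the most calls were those of the ribosome and the respiratory chain, where 5.21% of all tested genes were called higher within the range. Of 71 cytosolic ribosomal protein genes, 58 rose within the range (median log2 0.76, median length 835 bases), and 5 after the length correction (median 0.32). Of 36 complex I genes 22 rose (median 0.53) and none after the correction (median 0.06), and of 38 genes of complexes II to V 21 rose (median 0.49) and 1 after it (median 0.04). Of 54 mitochondrial ribosomal protein genes, 20 rose (median 0.36) and 1 after it (median 0.11), and DESeq2 called 32. Rpl41, a ribosomal protein of the large subunit, read 283, 262, 295 and 281 CPM against 370.4, 624 and 610.0 CPM (log2 0.90 ± 0.15, edgeR adjusted p = 0.013), and 0.32 after the correction (edgeR adjusted p = 0.0722). Ndufa11, a membrane arm subunit of complex I, read 424, 368, 402 and 415 CPM against 537, 737 and 809 CPM (log2 0.75 ± 0.13, edgeR adjusted p = 0.013), and 0.19 after it (edgeR adjusted p = 0.201). In both genes LCWE replicates 2 and 3 were highest and LCWE replicate 1 lay between them and PBS. LCWE replicates 2 and 3 are also the libraries with the lowest length slopes. Without LCWE replicate 2, none of these 4 lists kept a call; Cox6a1, a complex IV subunit that is in none of them, did pass. Without LCWE replicate 3 the counts were 1, 1, 0 and 0 in the order given, without PBS replicate 2 they were 7, 1, 1 and 0, and without PBS replicate 1 they were 12, 6, 6 and 5. Without PBS replicate 4 the last 3 were 8, 6 and 7, without PBS replicate 3 complex I had 12 and the mitochondrial ribosome 8, without Mcm8Ko_LCWE replicate 1 these had 14 and 12, and without LCWE replicate 1 the mitochondrial ribosome had 38. Ribosomal protein genes have many processed pseudogenes, so their counts are less certain.

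**Figure D4:**
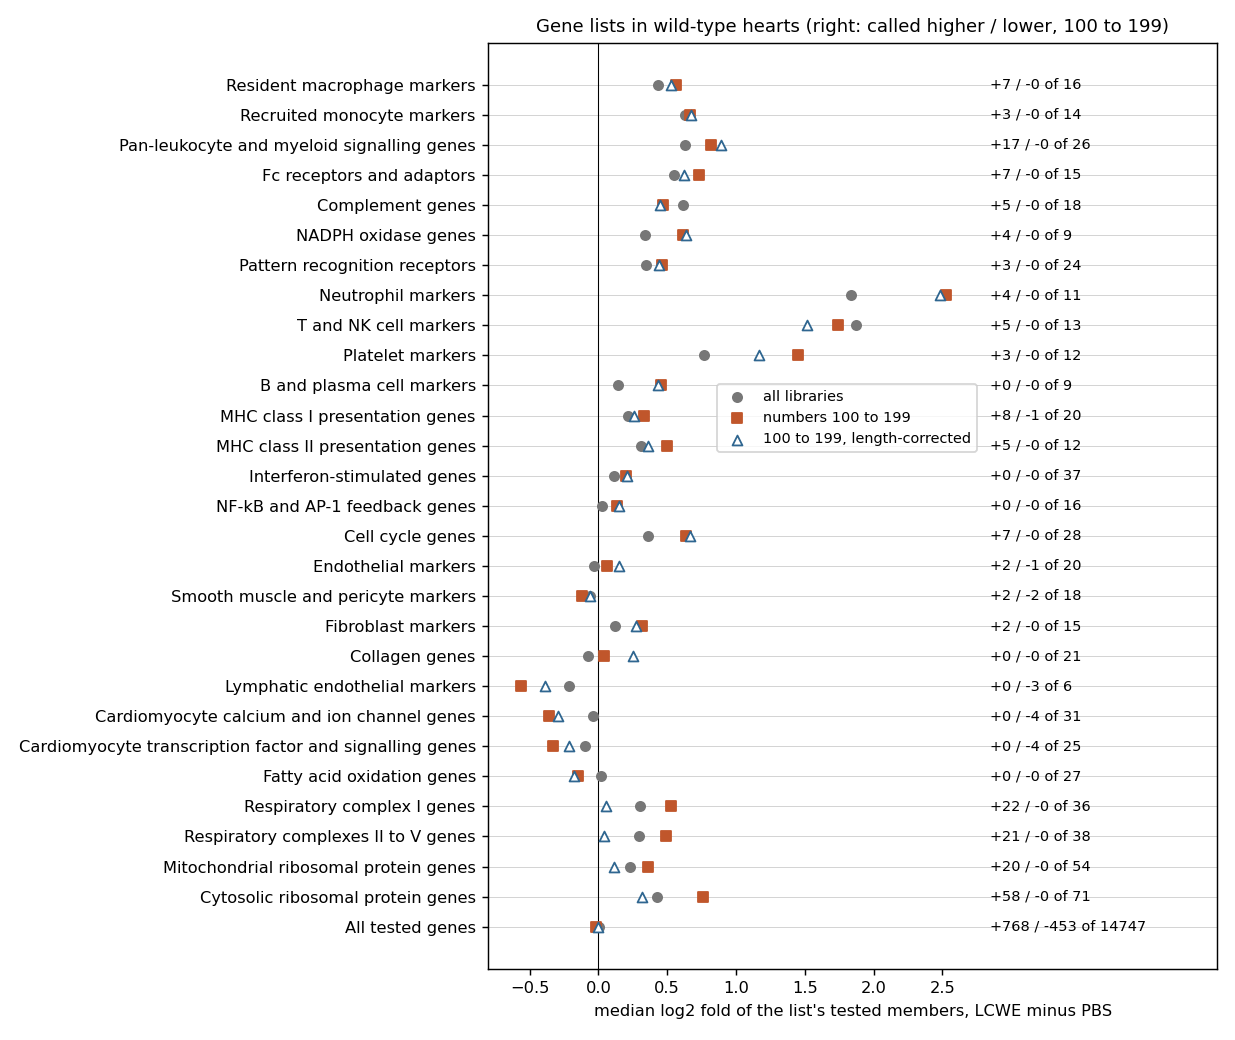
Median log2 difference (LCWE minus PBS, x axis) of the tested members of each gene list for all libraries (circles), the range (squares) and the length-corrected range (triangles), with the number called higher and lower at the right. After the length correction the pan-leukocyte median goes from 0.81 to 0.89, and that of complex I from 0.53 to 0.06.

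Whether the LCWE effect differed between the range and the other numbers was tested directly, with 3 LCWE and 1 PBS wild-type library outside it. None of 14301 genes passed in edgeR's test (0% called), with 1951 at an unadjusted p under 0.05, 195 called by DESeq2 and 0 by limma-voom. Without LCWE replicate 1 the edgeR count was 763. For C1qb the effect in the range minus that outside was 0.75 ± 0.52 (log2, edgeR unadjusted p = 0.171, adjusted p = 0.55). For Parm1 it was -1.39 ± 0.30 (edgeR unadjusted p = 0.000197, adjusted p = 0.233), and for Ddit4 -0.04 ± 0.49 (edgeR unadjusted p = 0.936, adjusted p = 0.983). In simulated counts of this design the test recovered 25.4% of genes changed by 2-fold and 81.8% of genes changed by 4-fold. Those counts held no length slope or other shift shared across genes.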

How the data were processed

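Per the labels' protocols, cDNA from heart RNA was amplified across the whole transcriptome ahead of library preparation. The authors deposited whole-number counts per gene symbol for all 19 libraries in 1 table. STAR 2.7.8a, limma and the build GRCm38 are named, without roles, per the submitters' processing notes; the counting program, annotation and strand setting were not given in the sources used here. Genotype and treatment labels set the groups; replicate numbers follow accession order. Of 25239 symbols, 24366 matched GENCODE M21.

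Counts were tested with edgeR 4.0.16 (R 4.3.3; robust quasi-likelihood, filterByExpr with a minimum count of 10 and a minimum total of 15, TMM, Benjamini-Hochberg over all tested genes, threshold 0.05). All 19 libraries in 4 groups gave 1 estimate of spread. Among sample numbers of at least 100 and under 200 (the range), 11 libraries did, 4 of them Mcm8 knockout. The knockout libraries also entered the filter and the scaling. The filter asks for its minimum count in as many libraries as the smallest group holds, which was 1 (Mcm8Ko_PBS) in the range. Standard errors are the log2 difference over the square root of F. The difference between the number ranges used 8 cells of group by range. Alternatives were RLE and total scaling, other filters, quasi-likelihood fitting with the robust option off, limma-voom 3.58.1, DESeq2 1.42.0, wild-type libraries alone, covariates (number range, Y-linked level, genes detected) and each library left out. Chosen after seeing the data were a lowess correction (span 0.3, log CPM with prior count 2) of each library for the length of the principal transcript, or the longest, and leaving out LCWE replicates 2 and 3 together. A length was found for 14504 of 14747 genes.

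On simulated counts with 200 changed genes, edgeR recovered 88.1% of 2-fold changes within the range and 88.1% over all libraries. It recovered 38.8% and 56.7% of 1.5-fold changes, in the same order. Changed genes were at 5 CPM or more. Counts were drawn gene by gene, with no length slope or other shift shared across genes. Recovery in the real libraries, which differ in length slope, was not measured. By rule, a gene was named if its p ranked among the smallest calls of its direction within the range, if its p or its difference without overlap ranked first over all libraries, or if it was 1 of up to 4 tested members of a list in order of p. Other members named to spell out a list's calls were chosen after their values were seen. The comparison, the number range and the gene lists were chosen with earlier results of these data known. Gene lists were described by counts and medians and not tested. Some genes, Fcer1g, Rac2, C5ar1 and Pf4 among them, are on several lists, so the counts of different lists are not independent. Some list members are not reported here by name. The lowest chi-square per gene between 55 pairs of wild-type libraries was 7.68, so no library was counted as a repeat of another. Promoters are from RefSeq (GRCm38.p6).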

Additional observations from a re-analysis of the deposited data

Results flagged for a closer look

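In groups of 5 PBS or 6 LCWE wild-type libraries, 9 of 146 groups of values held a library far from the others by Dixon's criterion, which chance gives in about 1 in 20 groups. Alox5ap was lowest in PBS replicate 2 at 7.79 CPM, with the others at 8.60 to 8.76 CPM. Cd8a was highest in LCWE replicate 2 at 1.80 CPM, with the others at 0.135 to 0.680 CPM. Pf4, the platelet factor 4 gene, was highest in PBS replicate 1 at 15.1 CPM, with the others at 9.95 to 11.01 CPM. Ltc4s was highest in PBS replicate 5 at 5.72 CPM, with the others at 2.40 to 2.92 CPM. Nppb was highest in LCWE replicate 2 at 1078 CPM, with the others at 198.7 to 484 CPM. Prox1 was lowest in PBS replicate 5, the only PBS library with a sample number outside the range, at 34.6 CPM, with the others at 66.0 to 76.8 CPM. Bcl7a was lowest in LCWE replicate 2 at 15.5 CPM, with the others at 17.8 to 18.9 CPM. Tsc22d3 was highest among PBS libraries in replicate 4 at 146 CPM, with the others at 95.3 to 109.7 CPM. Tsc22d3 was lowest among LCWE libraries in replicate 3 at 57.3 CPM, with the others at 79.4 to 92.6 CPM.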

How the results depend on the processing

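Over all libraries, edgeR called 0 genes (892 at an unadjusted p under 0.05) under every alternative run, except that DESeq2 called 1; leaving out each library in turn gave 0 in every fit. Within sample numbers of at least 100 and under 200 the 1221 calls became 1919 with DESeq2, 808 with wild-type libraries alone, 2211 with the Y-linked level as covariate, 181 with the correction for principal transcript length, 264 with the longest transcript and 4 without LCWE replicates 2 and 3. Leaving out 1 library there gave 15 (without LCWE replicate 2) to 3143 (without LCWE replicate 1). Total scaling called 51.2% of its genes higher, against 62.9%. For the difference between the ranges, edgeR's 0 became 195 with DESeq2 and ran from 0 to 763 over fits that left out 1 library, the highest without LCWE replicate 1; it could not be fitted without PBS replicate 5.

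For 72 genes, leaving aside the length corrections and the joint omission of LCWE replicates 2 and 3, 2146 gene-by-setting results over all libraries kept their direction and side of the threshold and 1 came to pass it; without LCWE replicates 2 and 3, the sign turned for Lpl (0.0111), Atp2a2 (0.0879) and Acta2 (-0.0446). Within the range 1267 kept both, 219 no longer passed and 6 came to pass, and none turned. Under the settings left aside, results within the range that no longer passed numbered 36 after the correction for principal transcript length, 34 with the longest transcript and 67 without LCWE replicates 2 and 3, and 78 kept both. The causes of these moves were not tested. Depth limits low genes: Cd8a, Cd3d and Ccl12 rested on 0 to 29 counts a library. No paired analysis was possible because the replicate numbers were given in accession order and pair no samples.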
